A study of Mus musculus with 20 samples.

Results

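Hematopoietic stem cells (HSCs), the rare marrow cells that maintain all blood lineages, were examined here through 10 heat-shock chaperone genes. The genes were chosen by name, and all 10 were found among the 49671 gene IDs of the RNA files once IDs were paired with symbols. They comprised 6 genes treated as inducible (Hspa1a, Hspa1b, Hsp90aa1, Hsph1, Dnajb1 and Hspb1) and 4 treated as constitutive (Hspa8, Hsp90ab1, Hspd1 and Hspe1). The study compared C57BL/6 mice of 8 weeks that carry Vav-CRE with either intact Kdm6b (Kdm6b+/+, Control) or a floxed Kdm6b (Kdm6bfl/fl, labelled Kdm6b-KO and also called knockouts here). Both groups therefore carried the Cre driver, which acts throughout the blood system, so the deletion was not restricted to stem cells and was not timed in the adult. Kdm6b encodes an enzyme that removes methyl groups from lysine 27 of histone H3. RNA was counted in 3 Control and 3 Kdm6b-KO libraries of sorted HSCs, each made from a pool of marrow from 3 males and 3 females. Open chromatin was mapped by ATAC-seq in 3 libraries titled Control and 3 titled 6bKO, although the genotype label of all 6 ATAC libraries reads wild-type and the titles alone give these groups. Another 8 of the 20 samples hold histone immunoprecipitation or its input and were left out.

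Heat-shock proteins are chaperones that bind unfolded protein and help it fold. The HSP70 and HSP90 families act in the cytosol with J-domain partners and nucleotide exchange factors, and HSP60 with its lid HSP10 folds proteins inside mitochondria. Each cytosolic family has constitutive members, present in unstressed cells, and inducible ones, which heat-shock factor 1 (HSF1) switches on when unfolded protein accumulates. HSF1 binds heat-shock elements, arrays in which the 3-base unit GAA and its reverse complement TTC alternate with 2 free bases between them.

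Promoter windows of 250 bases before and 50 after an annotated start (RefSeq, GRCm38.p6) matched 7 of the 10 genes: Hspa1a, Hspa1b, Hsph1, Dnajb1, Hspb1, Hspd1 and Hspe1. Hspa8, Hsp90aa1 and Hsp90ab1 are named only. The shortest element was 2 linked units in either order, GAANNTTC or TTCNNGAA, each of which reads the same on both strands. It was present in a window of 6 of the 7 genes, against 16.973% of 27025 genes with a window. The exception was Dnajb1, with no match in the windows of its 2 annotated starts, of which the first is shown. The bases upstream of the start are shown for the near-identical inducible HSP70 copies Hspa1a and Hspa1b, for Hspb1, whose transcript was not counted in any library, and for Dnajb1, the member with the largest tested difference in RNA. Sequences run 5′ to 3′ on the gene's strand, and capitals mark every match to the 2-unit element.
Hspa1a, chr17:34972157-34972406, minus strand: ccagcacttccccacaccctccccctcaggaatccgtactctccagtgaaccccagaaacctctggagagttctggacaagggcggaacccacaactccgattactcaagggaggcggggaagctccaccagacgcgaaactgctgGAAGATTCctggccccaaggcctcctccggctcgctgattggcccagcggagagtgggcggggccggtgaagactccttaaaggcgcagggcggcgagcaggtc
Hspa1b, chr17:34959239-34959488, minus strand: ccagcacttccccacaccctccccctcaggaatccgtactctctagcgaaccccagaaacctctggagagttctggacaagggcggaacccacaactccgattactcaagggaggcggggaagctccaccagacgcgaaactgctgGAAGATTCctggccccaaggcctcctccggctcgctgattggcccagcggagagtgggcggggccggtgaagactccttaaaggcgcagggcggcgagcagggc
Hspb1, chr5:135887669-135887918, plus strand: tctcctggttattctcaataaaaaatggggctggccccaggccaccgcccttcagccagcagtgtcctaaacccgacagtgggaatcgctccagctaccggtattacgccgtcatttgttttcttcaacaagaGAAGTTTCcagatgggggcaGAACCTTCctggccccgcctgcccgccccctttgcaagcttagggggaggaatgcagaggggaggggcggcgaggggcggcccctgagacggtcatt
Dnajb1, chr8:83607925-83608174, plus strand: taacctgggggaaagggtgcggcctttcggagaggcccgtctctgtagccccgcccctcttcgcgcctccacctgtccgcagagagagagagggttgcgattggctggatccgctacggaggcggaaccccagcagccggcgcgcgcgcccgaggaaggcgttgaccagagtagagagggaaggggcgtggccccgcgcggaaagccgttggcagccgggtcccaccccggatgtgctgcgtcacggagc

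Hspa1a and Hspa1b differed at 4 of the 300 bases of their windows (98.7% identity) and carried the same single match, GAAGATTC, from base -104 to base -97 before the start. Hspb1 carried GAAGTTTC from -117 to -110 and GAACCTTC from -97 to -90. Longer arrays were rarer. A run of 3 linked units, which contains the 2-unit element, was present in Hsph1, Hspd1 and Hspe1, against 0.662% of the 27025 genes. A run of 4 linked units was present only in Hspd1 and Hspe1 among the 7 genes and in 8 genes (0.03%) over the whole table. Hspd1 has 2 annotated starts, and only the window of the second holds the array. Hspd1 and Hspe1 are transcribed in opposite directions, and their array is one stretch of DNA read from both sides, so these genes are not separate examples. The same holds for Hspa1a and Hspa1b, which are copies. The short stretches below show the Hsph1 array and the Hspe1 array, with the array in capitals. The Hsph1 array runs from base 37 to base 49 after the first of its 2 annotated starts, and from 16 to 28 after the second. The Hspe1 array runs from -89 to -72.
Hsph1, chr5:149636287-149636308, minus strand: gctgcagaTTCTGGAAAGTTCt
Hspe1, chr1:55088053-55088082, plus strand: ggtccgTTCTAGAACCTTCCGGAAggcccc
A match is a run of letters, and binding of HSF1 was not measured.

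Counts in genes ranged from 6793873 to 13797890 in Control and from 8683106 to 19336121 in Kdm6b-KO, so that 3 counts were worth between 0.148 and 0.461 CPM (read counts scaled to a common library size with TMM factors). Reads without a unique alignment made up 37.57% to 46.82% of each RNA file and were not assigned to genes. Kdm6b itself stood at 92.0, 282.5 and 220.6 CPM in the Control libraries, against 142.5, 202.1 and 191.3 CPM in the knockouts, and these whole-gene counts overlapped. Which part of the gene was removed is not known here, so the counts do not check the labels. All 10 genes of a stem-cell and sort-marker list passed the filter on low counts, with a summed level of 3304 to 5517 CPM in Control and 3847 to 4148 CPM in Kdm6b-KO. Markers of other cells were also present, and Kdm6b-KO replicate 1 stood apart from the other knockouts in them. Neutrophil and granulocyte markers (10 of 10 tested) summed to 1192 to 3685 CPM in Control and to 4333 CPM in Kdm6b-KO replicate 1, but to 194.4 and 192.3 CPM in replicates 2 and 3, below every Control library. Erythroid markers (8 of 10 tested) summed to 210.4 to 376 CPM in Control, and to 235.6, 42.93 and 52.28 CPM in Kdm6b-KO. Mast cell, basophil and eosinophil markers (5 of 8 tested) summed to 25.03 to 106.4 CPM in Control, and to 200.8, 8.936 and 7.271 CPM in Kdm6b-KO. Within this list Cpa3 and Ms4a2 were lower in every knockout than in any Control library, and 0 were higher. Of the 9 tested monocyte and macrophage markers, 3 were lower in that way and 0 higher. The stem-cell and erythroid lists each held 1 gene that was higher in every knockout and 1 that was lower. The B and T cell list held 1 that was higher and 0 lower, and the neutrophil list 0 of either. None of these markers was called by edgeR. Over all tested genes, 9.49% stood apart in the lower direction and 11.0% in the higher. Monocyte and macrophage markers summed to 75.86 to 93.84 CPM in Control and 84.45 to 118 CPM in Kdm6b-KO, and B and T cell markers (4 of 10 tested) to 75.99 to 108 and 84.34 to 109.5 CPM. No listed marker was at 0 in all 6 libraries. In bulk libraries of this kind, fewer cells of a type and less RNA per cell cannot be told apart.

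The comparison of Kdm6b-KO with Control asked whether HSCs of mice labelled Kdm6b-KO hold other levels of chaperone transcripts. None of the 10 chaperones was called. Of the 10, 7 passed the filter on low counts, and 0 of these 7 had an adjusted p under 0.05 by edgeR's quasi-likelihood test, by DESeq2 or by limma-voom. Over all 15185 tested genes, edgeR called 70, or 0.461%. At an unadjusted p under 0.05, each of the 3 tools returned 2 of the 7 members, Dnajb1 and Hspa8, where 14.8% of all tested genes reached that p in edgeR. The values of Hsph1 and Dnajb1 were higher in all 3 Kdm6b-KO libraries than in any Control library, and those of Hspa8 were lower. Groups stood apart in that way in 11.0% of tested genes in the higher direction and in 9.49% in the lower. Without Kdm6b-KO replicate 1, 0 chaperones were called, and the log2 fold changes were 0.65 (adjusted p = 0.348, edgeR) for Dnajb1, 0.42 (0.589) for Hsph1 and -0.43 (0.524) for Hspa8. Markers of other cells set this library apart, but leaving it out is no test of their part. The remaining knockouts were below every Control library in the neutrophil and erythroid marker sums. The part of other cells in the chaperone values was not tested.

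**Figure D1:**
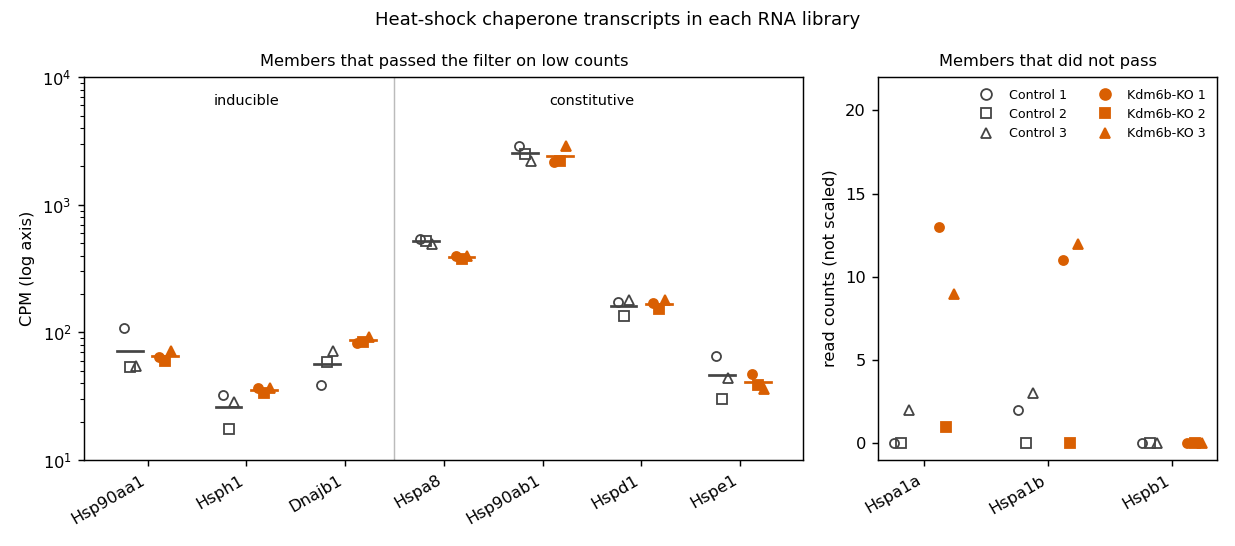
Transcript levels of the 10 chaperones in each RNA library, with CPM on a log axis for the 7 that passed the filter on low counts (left; horizontal bars are group means) and unscaled read counts for the 3 that did not (right). Dnajb1 and Hsph1 lie higher and Hspa8 lower in all 3 Kdm6b-KO libraries, Hspa1a and Hspa1b reach at most 13 counts, and Hspb1 is at 0 throughout.

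Among the 3 inducible genes that passed the filter, Dnajb1 differed most. It encodes the J-domain protein Hdj1, which delivers clients to HSP70 and stimulates its ATPase (chromosome 8, 83608175 to 83612653). Dnajb1 stood at 38.7, 58.45 and 71.9 CPM in the Control libraries, against 83.21, 84.56 and 92.6 CPM in the knockouts. The Kdm6b-KO libraries lay close together and above all 3 Control libraries, of which Control replicate 1 was the lowest. The fitted level in Kdm6b-KO was 1.54-fold that in Control, a log2 fold change of 0.62 (SE 0.22), with an unadjusted p of 0.0134 and an adjusted p of 0.216 (edgeR). Across the alternatives of processing and of left-out libraries its log2 fold change ran from 0.41 to 0.83, with adjusted p from 0.116 to 0.519.

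Hsph1 encodes Hsp105, a nucleotide exchange factor of the HSP110 family that resets HSP70 (chromosome 5, 149616843 to 149636498). It stood at 32.41, 17.54 and 28.64 CPM in the Control libraries, against 36.8, 33.67 and 36.36 CPM in the knockouts. The groups did not overlap, but Control replicate 1 came within 2 CPM of the lowest Kdm6b-KO library. The log2 fold change was 0.44 (SE 0.25, adjusted p = 0.420, edgeR), and it ran from 0.23 to 0.62 over the alternatives.

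Hsp90aa1, the inducible cytosolic HSP90 (chromosome 12, 110691036 to 110696395), stood at 107.5, 53.24 and 54.73 CPM in the Control libraries, against 64.24, 60.15 and 70.88 CPM in the knockouts. Control replicate 1 was the highest of the 6 libraries, and the other two Control libraries were the lowest. The log2 fold change was -0.14 (SE 0.25, adjusted p = 0.845, edgeR), with overlapping groups. Its sign rested on that one library, since the log2 fold change was 0.27 (adjusted p = 0.465) without Control replicate 1. Its sign also turned, to 0.01, when libraries were scaled by their totals, a scaling that moved the median of all tested genes to 0.15.

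The strongly inducible HSP70 genes Hspa1a (chromosome 17, 34969359 to 34972156) and Hspa1b (chromosome 17, 34956429 to 34959238) were close to the limit of detection. Hspa1a stood at 0, 0 and 2 counts in the Control libraries, against 13, 1 and 9 counts in the knockouts. Hspa1b stood at 2, 0 and 3 counts in the Control libraries, against 11, 0 and 12 counts in the knockouts. In both, Kdm6b-KO replicates 1 and 3 were above every Control library, and Kdm6b-KO replicate 2 was within the Control range.

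Because reads of near-identical copies can be split or left out in counting, the counts of Hspa1a and Hspa1b were also summed. The sum was 7 counts over the 3 Control libraries and 46 over the 3 Kdm6b-KO libraries. After scaling, this was a ratio of 4.52, with a 95% interval of 2.03 to 11.9 that covers counting error only. Without Kdm6b-KO replicate 1 the ratio was 3.00 (1.24 to 8.32), and without Control replicate 3, which held 5 of the 7 Control counts, it was 8.10 (2.12 to 68.9). Leaving out any other single library gave 3.25 to 5.70. The interval compares reads and leaves out the spread between libraries, where Kdm6b-KO replicate 2 held a single count. The sum did not pass the filter on low counts. Fitted with edgeR and no filter, it had a log2 fold change of 2.20 (SE 1.06, unadjusted p = 0.0370, adjusted p = 0.491). An unknown share of reads from these copies may be among those without a unique alignment, which was not tested.

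Hspb1, the small heat-shock protein HSP27 (chromosome 5, 135887919 to 135889563), had 0 counts in all 6 libraries. At the summed depth of 68373006 counts, 0 allows a level of up to 0.0435 CPM over the 6 libraries. No fold change can be given. No heat-shocked sample was analysed here.

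The constitutive genes all passed the filter on low counts, with at least 238 counts in every library. How many of their reads were lost without a unique alignment was not tested. Hspa8, the constitutive HSP70 known as Hsc70 (chromosome 9, 40801276 to 40805202), stood at 538.9, 523.3 and 494.2 CPM in the Control libraries, against 397.2, 373.5 and 397.5 CPM in the knockouts. The gap between the groups was larger than the spread within either. The fitted level in Kdm6b-KO was 0.751 of that in Control, a log2 fold change of -0.41 (SE 0.19), with an unadjusted p of 0.0484 and an adjusted p of 0.334 (edgeR). Over the alternatives the log2 fold change ran from -0.45 to -0.26, with adjusted p from 0.197 to 0.663. The gene also holds the small nucleolar RNA genes Snord14c, Snord14d and Snord14e, and reads from these could have been counted with it or set aside as ambiguous.

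Hsp90ab1, the constitutive cytosolic HSP90 (chromosome 17, 45567778 to 45573261), stood at 2878, 2497 and 2189 CPM in the Control libraries, against 2178, 2185 and 2890 CPM in the knockouts. The groups covered nearly the same range, and a log2 change of -0.06 was fitted (SE 0.24, adjusted p = 0.937, edgeR), whose sign changed with the libraries and the scaling used. Without Control replicate 1 it was 0.05, and scaled by library totals 0.09.

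Hspd1 and Hspe1 encode the mitochondrial chaperonin HSP60 and its co-chaperonin HSP10, and lie head to head on chromosome 1 (55077833 to 55088243 and 55088148 to 55091317). Hspd1 stood at 174, 133.5 and 178.4 CPM in the Control libraries, against 170.8, 153.2 and 179.2 CPM in the knockouts. Its log2 fold change was 0.05 (SE 0.19, adjusted p = 0.934, edgeR), and in each group replicate 2 was the lowest. Hspe1 stood at 64.96, 30.24 and 43.77 CPM in the Control libraries, against 47.11, 38.47 and 36.16 CPM in the knockouts. Its log2 fold change was -0.19 (SE 0.26, adjusted p = 0.774, edgeR), and it turned to 0.13 without Control replicate 1, the highest library for this gene. For both genes the Kdm6b-KO libraries lay within the range of the Control libraries, except that Kdm6b-KO replicate 3 exceeded the highest Control library for Hspd1 by less than 1 CPM. Because the ends of these genes overlap, reads there could have been lost or assigned to either.

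Setting inducible against constitutive chaperones within a library removes the scaling of that library. The mean log2 CPM of the 3 inducible genes that passed the filter, minus that of the 4 constitutive genes, was -2.83, -2.83 and -2.65 in the Control libraries, against -2.31, -2.25 and -2.24 in the knockouts. The group means were -2.77 ± 0.10 and -2.27 ± 0.04 (SD, n = 3 each), a difference of 0.50 on the log2 scale. This is a description without a test, because the genes were chosen with earlier results known. The genes did not share evenly in the difference. Log2 fold changes were 0.62 for Dnajb1, 0.44 for Hsph1 and -0.41 for Hspa8, whose groups did not overlap. They were -0.06 for Hsp90ab1, 0.05 for Hspd1 and -0.19 for Hspe1, whose groups overlapped. With Hsp90aa1 left out the difference was 0.72, so Hsp90aa1 did not add to it. The pair was compared directly through the log2 ratio of Hsp90aa1 to Hsp90ab1, which was -4.74, -5.55 and -5.32 in the Control libraries, against -5.08, -5.18 and -5.35 in the knockouts. The group means were equal to 2 decimals at -5.20, with SDs of 0.42 and 0.14 (exact permutation p = 1, two-sided). In the Control libraries the log2 ratio of Hspa1a + Hspa1b to Hspa8 was -10.6, -13.6 and -10.2. The -13.6 rests on 0 counts of the copies and the prior count of 0.5. In the knockouts this ratio was -7.54, -11.3 and -8.52. Its difference of 2.35 between group means was within the spread of the libraries (exact permutation p = 0.3, two-sided; 0.6 adjusted over the 2 ratios). With 3 libraries against 3, this test cannot give a p below 0.1.

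**Figure D2:**
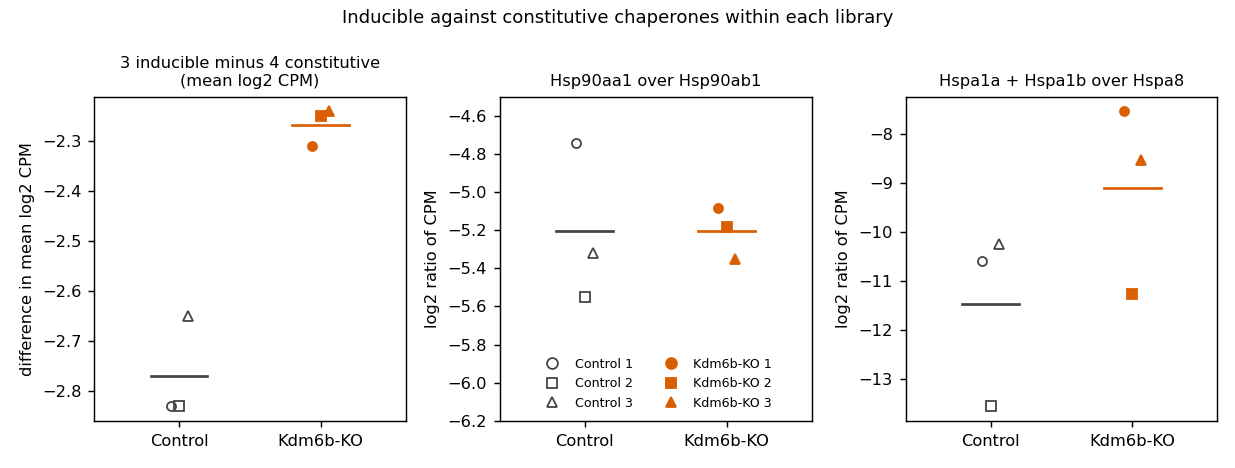
Inducible against constitutive chaperones within each RNA library, as the mean log2 CPM of 3 inducible minus 4 constitutive genes (left), the log2 ratio of Hsp90aa1 to Hsp90ab1 (middle) and the log2 ratio of Hspa1a + Hspa1b to Hspa8 (right), with horizontal bars at group means. The left contrast lies between -2.83 and -2.65 in Control and between -2.31 and -2.24 in Kdm6b-KO, and in the other panels the groups overlap.

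In the wider protein-folding network edgeR called no gene, where 0.461% of all tested genes were called. At that share, 0 calls do not set these lists apart from other genes. The 5 lists of heat-shock factors and regulators, cytosolic co-chaperones, the cytosolic chaperonin TRiC with prefoldin, mitochondrial proteostasis and endoplasmic reticulum chaperones held 85 genes, of which 83 were tested. By edgeR 0 of the 83 were called and 11 had an unadjusted p under 0.05, where the share over all tested genes was 14.8%. DESeq2 called 2 of the 83, Ptges3 lower and Serpinh1 higher, and limma-voom 0, with 11 and 12 at an unadjusted p under 0.05. Over all genes, DESeq2 called 3.20% and limma-voom 0.362%. Log2 fold changes were positive in 44 and negative in 39, and the groups did not overlap in 9 genes in the higher and 8 in the lower direction, where the shares over all tested genes were 11.0% and 9.49%. These shares are close to those of the 83 genes.

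The medians of the 5 lists lay between -0.16 and 0.12. The median log2 fold change was -0.16 over the 6 heat-shock factors and regulators tested, 0.03 over 36 co-chaperones, -0.01 over 14 TRiC and prefoldin subunits, 0.12 over 12 mitochondrial genes and 0.05 over 15 endoplasmic reticulum chaperones. Over all tested genes it was -0.00125. Hsf1, the factor that drives the heat-shock response, stood at 11.52, 32.66 and 46.83 CPM in the Control libraries, against 46.32, 51.43 and 48.48 CPM in the knockouts. Control replicate 3 overlapped the Kdm6b-KO libraries, and Hsf1 did not pass the test (log2 fold change 0.67, SE 0.40, unadjusted p = 0.130). Hsbp1, which binds HSF1, and Hikeshi, which imports HSP70 into the nucleus, had log2 fold changes of -0.26 (SE 0.22) and -0.11 (SE 0.19).

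Between the 2 co-chaperones of highest mean CPM, the larger difference was in Ptges3, which encodes the HSP90 co-chaperone p23. It stood at 1862, 1431 and 804.2 CPM in the Control libraries, against 657.9, 624.5 and 580 CPM in the knockouts. Every Kdm6b-KO library was below every Control library, and the fitted log2 change was -1.14 (SE 0.28, adjusted p = 0.1002, edgeR). DESeq2 returned an adjusted p of 0.00262 for the gene, and over all alternatives it ranged from 0.000361 to 0.392. St13, which encodes the HSP70-interacting protein Hip, stood at 1727, 3040 and 1718 CPM in the Control libraries, against 1561, 1512 and 1541 CPM in the knockouts. Its groups did not overlap either, at a log2 fold change of -0.49 (SE 0.26, unadjusted p = 0.0801).

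Groups stood apart in 11.0% of all tested genes in the higher direction and in 9.49% in the lower. Of the 36 co-chaperones tested, 18 had positive and 18 negative log2 fold changes. Among these 36 the groups did not overlap in 4 in the higher and 7 in the lower direction, which was not tested. The largest fold was in Hspb8, a small heat-shock protein, at 8.293, 5.718 and 7.891 CPM in the Control libraries, against 0.6992, 2.833 and 3.809 CPM in the knockouts. Its log2 change was -1.55 (SE 0.50, adjusted p = 0.176, edgeR), and it was called with no filter (adjusted p = 0.0401). In the other direction, Cdc37, which loads kinases onto HSP90, stood at 58.82, 50.19 and 64.59 CPM in the Control libraries, against 81.72, 75.73 and 91.86 CPM in the knockouts, with a log2 change of 0.52 (SE 0.19, unadjusted p = 0.0145). Stub1, the ubiquitin ligase CHIP that marks HSP70 clients for degradation, stood at 46.07, 50.83 and 72.41 CPM in the Control libraries, against 73.07, 73.45 and 87.85 CPM in the knockouts, with a log2 change of 0.47 (SE 0.21, unadjusted p = 0.0418). Hspb8, Cdc37, Stub1, Hsf1 and Serpinh1 were named after their values were seen.

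In the other compartments, Cct5 and Cct7, subunits of TRiC, had log2 fold changes of -0.09 (SE 0.22) and -0.14 (SE 0.22). The mitochondrial HSP90 Trap1 had 0.07 (SE 0.24), and the protease Yme1l1 -0.68 (SE 0.26, unadjusted p = 0.0205). The endoplasmic reticulum HSP70 Hspa5 (BiP) had 0.05 (SE 0.22), and the lectin chaperone Canx -0.51 (SE 0.26, unadjusted p = 0.0717). Serpinh1, the collagen chaperone HSP47, stood at 6.604, 9.784 and 8.549 CPM in the Control libraries, against 25.61, 15.47 and 21.32 CPM in the knockouts. Its log2 fold change was 1.32 (SE 0.29), with no overlap and an adjusted p of 0.0692 (edgeR) that ranged from 0.00329 to 0.308 over the alternatives.

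**Figure D3:**
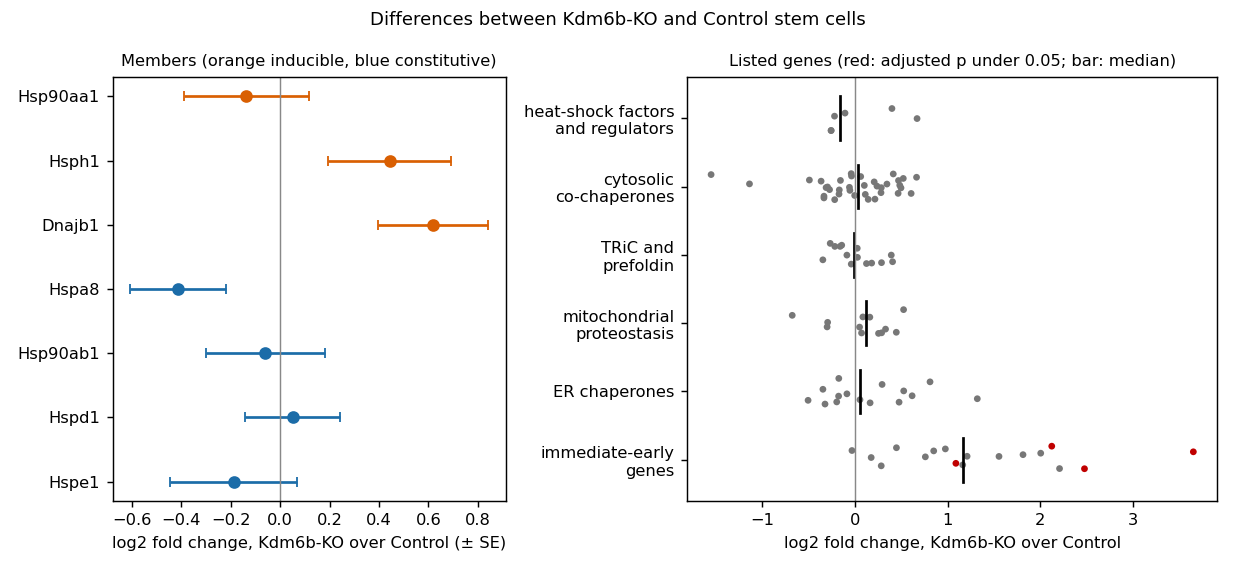
Log2 fold changes of Kdm6b-KO over Control for the 7 tested chaperones with their standard errors (left) and for the tested genes of 6 lists, each point 1 gene, black bars the medians and red points an adjusted p under 0.05 (right). The 5 protein-folding lists hold no red point and have medians between -0.16 and 0.12, and the immediate-early list has a median of 1.163.

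Immediate-early genes, which cells switch on soon after a stimulus, are given here because their summed level differed between the groups in the same libraries. Of 20 listed, 17 were tested, and the sum was 290.9 to 409.6 CPM in Control and 751.7 to 1195 CPM in Kdm6b-KO, with no overlap. Atf3 was at 0 in all 6 libraries. By edgeR 4 of the 17 were called, all higher, and 13 did not pass, where 0.461% of all tested genes were called. In 12 of the 17 the knockouts lay above every Control library, against 11.0% of all tested genes, and the median log2 fold change was 1.163. The called genes were Fos and Fosb, subunits of AP-1, at 3.65 (SE 0.50, adjusted p = 0.0323, edgeR) and 2.48 (SE 0.43, adjusted p = 0.0142), and, named after their values were seen, Dusp1 at 2.12 (SE 0.31, adjusted p = 0.00650) and Ppp1r15a at 1.09 (SE 0.22, adjusted p = 0.0439). Without Kdm6b-KO replicate 3 none of the 4 was called, with adjusted p of 0.0982, 0.0581, 0.0516 and 0.221 in that order. The part of this shift in the values of Dnajb1, Hsph1 and the Hspa1 copies was not tested.

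Genes outside all the lists were then ranked by how closely their levels followed the mean of the tested inducible chaperones. These chaperones did not move together. Pearson r was 0.442 for Hsp90aa1 with Hsph1, 0.356 for Hsph1 with Dnajb1 and -0.613 for Hsp90aa1 with Dnajb1. Over the 6 RNA libraries, the mean log2 CPM of Hsp90aa1, Hsph1 and Dnajb1 had its highest correlations, among 7434 genes with a mean of at least 20 CPM, with Eif2ak1 (Pearson r = 0.998), Dtx3 (0.994), Ppic (0.992), Sestd1 (0.990) and Lcmt1 (0.989). These are the extremes of many correlations over 6 libraries that share their group structure, and none of the 5 genes was called. Eif2ak1, the heme-regulated kinase of translation factor eIF2, averaged 69.1 CPM in the Control libraries and 88.6 CPM in the knockouts, and its log2 change of 0.36 had an adjusted p of 0.388 (edgeR).

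Open chromatin was then examined at the same genes. The 6 peak lists held 44739 to 69729 peaks each, and the number of peaks moves with a depth that is unknown here. A peak within 1 kb of the start was present in all 6 lists for 9 of the 10 genes, all except Hspb1. Where no strand was given, for Hspa8, Hsp90aa1 and Hsp90ab1, either end of the gene was accepted. Among 13435 genes tested for expression that have a position, 67.1% had such a peak in all 6 lists. Among 22235 genes that did not pass the filter on low counts, 5.62% did.

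Hspa1a and Hspa1b belong to that second class by their counts, yet both had a start peak in every list. Their start windows are 98.7% identical, so some ATAC reads may not be assignable to one copy. The 2 peaks are therefore not separate examples, and how such reads were placed was not tested. The authors' fold enrichment at the Hspa1a start was 6.70, 6.53 and 7.95 in Control and 7.64, 5.59 and 10.7 in the libraries titled 6bKO. At the Hspa1b start it was 6.33, 5.06 and 7.86 in Control and 6.36, 10.8 and 10.4 in the libraries titled 6bKO. The ranges overlapped for both genes, and the fold enrichments of separate lists are not on one scale, so no difference between the groups was drawn from them. Hspb1, with no counts, had a start peak in 2 of 3 Control lists, at 5.06 and 3.70, and in 2 of 3 lists titled 6bKO, at 4.18 and 5.93. Control replicate 1 and 6bKO replicate 2 lacked it.

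By fold enrichment, the start peaks of Dnajb1, Hsph1, Hspa8, Hspd1 and Hspe1 stood at or above percentile 76.4 of each list. Those of Hsp90aa1 ranged from 58.7 to 88.4 and those of Hsp90ab1 from 29.8 to 80.6. For Dnajb1, Hsph1, Hspa8, Hsp90ab1 and the shared Hspd1 and Hspe1 peak, percentiles were lower in every 6bKO-titled list than in any Control list. For Dnajb1 they were 88.0, 95.4 and 96.2 in Control and 85.6, 85.5 and 76.4 in 6bKO. They overlapped for Hsp90aa1, Hspa1a, Hspa1b and Hspb1. Median fold enrichment of whole lists also differed, at 5.046 to 5.651 in Control and 6.509 to 7.336 in 6bKO. How many other genes show such percentiles was not tested. At the Dnajb1 start, fold enrichment was 9.45, 14.9 and 17.3 in Control and 11.3, 13.2 and 12.3 in the libraries titled 6bKO, and at the Hsph1 start it was 12.4, 15.2 and 17.03 and 15.1, 14.1 and 16.2. The Hspa8 peak had 12.5, 13.8 and 15.5 in Control and 13.6, 15.4 and 14.9 in 6bKO. In all 3 genes these fold enrichments overlapped between the groups. Hspd1 and Hspe1 shared a single peak over their common start region in every list, at 11.2, 15.4 and 19.4 in Control and 11.4, 13.9 and 16.9 in 6bKO, and the array of 4 linked units shown above lies inside it in all 6 lists. Hsp90aa1 had 5.97, 10.1 and 12.3 in Control and 8.24, 7.94 and 8.53 in 6bKO. Hsp90ab1 had 6.67, 7.98 and 9.57 in Control and 6.58, 5.25 and 6.89 in 6bKO. Where several peaks lay near an end, the one of smallest q is given. For 6bKO replicate 1 that peak lay outside the gene, and a second one, of 6.68, lay at the end of the gene where the Control peaks were.

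**Figure D4:**
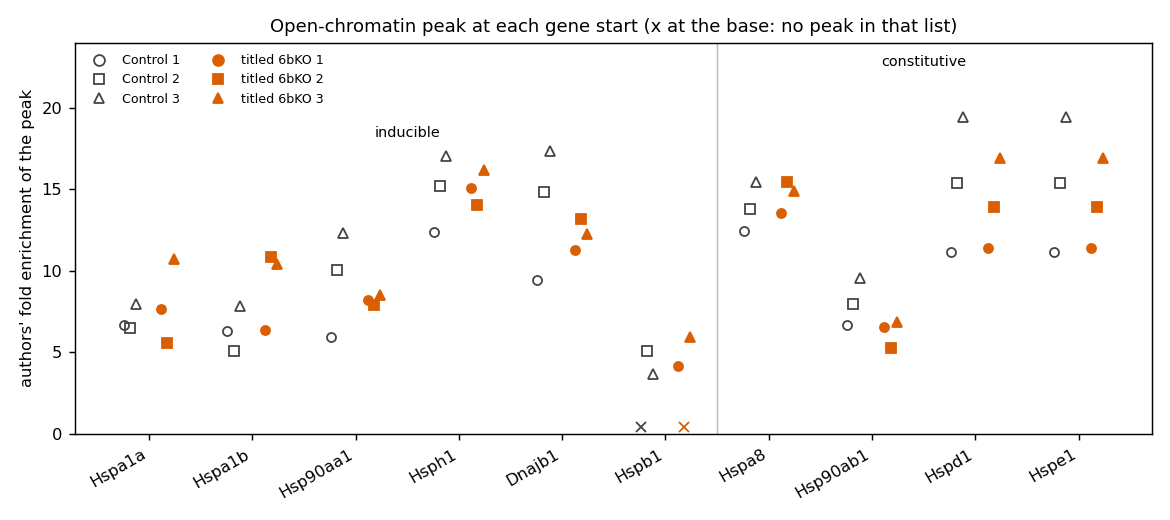
Fold enrichment given by the authors for the ATAC peak at the start of each chaperone gene in each library, with crosses at the base where a list held no such peak. The 2 Hspa1 genes have a peak in every list, Hspb1 lacks one in 1 list of each group, and the values of the groups overlap for every gene with 6 values.

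Beyond the starts, 131 merged regions lay in or within 50 kb of the 10 genes, 24 of them near more than 1 of the genes. A peak was present in all 6 lists in 30 of the 131 regions (22.9%), and in a single list in 57 (43.5%). Among the 99313 regions within 50 kb of genes tested for expression, 17.2% were in all 6 lists and 51.7% in a single list. Regions particular to a group were few. A single region had a peak in all 3 Control lists and in none titled 6bKO, where the background share is 0.344%, and 0 regions showed the reverse, where it is 1.33%. That region (chromosome 1, 55075854 to 55076441, GRCm38/mm10) lies 1392 bp beyond the 3′ end of Hspd1, with fold enrichments of 5.02, 5.64 and 7.23. When peaks had to overlap reciprocally, each over at least 50% of its length, to count as one region, no region was particular to Control and 1 to the libraries titled 6bKO.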

How the data were processed

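Each RNA library came with its own table of unnormalized counts, 1 row per Ensembl gene, as deposited by the authors. Per the labels' protocols, libraries were made with a SMARTer Ultra Low kit. The submitters' processing notes list HTSeq 0.8.0, featureCounts 1.4.5 of Subread, STAR 2.0.4 and Partek 6.6 for RNA without roles. Closing lines of unassigned reads were left out of library sizes, and genes took 16.46% to 19.73% of the reads. No source used here gives the strand setting or annotation release. Of 49671 gene IDs, 49326 matched a symbol.

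Each ATAC library came with its own deposited list of peaks, called for that library alone. MACS2, BWA 0.7.16a and cutadapt are listed in the submitters' processing notes. The authors' fold enrichment is a ratio, their p and q are −log10 values (smallest −log10 q 2.00), and their score column was not used.

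Members, lists and tests were chosen with earlier results of these data known. The test was edgeR 4.0.16 in R 4.3.3 (filterByExpr, TMM, robust glmQLFit, glmQLFTest on genotype, two-sided, Benjamini-Hochberg over 15185 genes, threshold 0.05). The SE is the size of the log2 fold change over the square root of F. DESeq2 1.42.0, limma 3.58.1, other scalings and filters, and leaving out each library were alternatives. Ratios between genes used a prior count of 0.5 and an exact permutation test. Counting intervals are exact binomial, and they and the floor of 3 counts cover counting error only, as reads carry no molecular identifiers. Replicates are labelled biological pools. Peaks overlapping by at least 1 bp were merged across lists. Positions and promoter windows are from RefSeq tables of GRCm38.p6, the assembly of mm10. The code was tested on simulated data.

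Named genes were the 10 members, in each protein-folding and immediate-early list up to 2 called genes per direction with the largest log2 fold change or, with none called, the 2 of highest mean CPM, and the 5 best correlated genes. Marker genes are given as sums. Transcript lengths were not used, so CPM are not compared between genes beyond the choice of which to name.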

Additional observations from a re-analysis of the deposited data

How the results depend on the processing

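No chaperone was called under any of the 13 alternatives, and Dnajb1, Hsph1 and Hspa8 kept the sign of their log2 fold changes in all of them. Library totals as scaling turned Hsp90aa1 to 0.0066, Hsp90ab1 to 0.089, Hikeshi to 0.048, Cct5 to 0.063 and Cct7 to 0.010. Leaving out single libraries turned signs near 0. The ranges were -0.31 to 0.27 for Hsp90aa1, -0.21 to 0.048 for Hsp90ab1, -0.069 to 0.13 for Hspd1, -0.42 to 0.13 for Hspe1, -0.19 to 0.014 for Hikeshi, -0.20 to 0.017 for Cct5, -0.16 to 0.31 for Trap1 and -0.060 to 0.26 for Hspa5. The sign turned without Control replicate 1 for Hsp90aa1, Hsp90ab1, Hspe1, Trap1 and Hspa5, without Control replicate 2 for Hspd1, Hikeshi and Hspa5, without Kdm6b-KO replicate 1 for Hsp90ab1, without replicate 2 for Hsp90ab1 and Cct5, and without replicate 3 for Hspd1 and Trap1. The cause was not tested. Across all genes, calls numbered 70, but 467 with DESeq2, 576 with no filter, and 20 to 519 with 1 library left out. Without Kdm6b-KO replicate 3 none of Fos, Fosb, Dusp1 and Ppp1r15a was called. Fos was also not called without Control replicate 2 (adjusted p = 0.0935, edgeR), nor Fosb and Dusp1 without Kdm6b-KO replicate 2 (0.148 and 0.0547), and Ppp1r15a lost its call in 5 alternatives, with adjusted p from 0.0508 to 0.243. The contrast of inducible and constitutive genes was 0.72 with Hsp90aa1 left out and 0.70 with it among the constitutive, alternatives chosen after seeing the data. For Hspa1a + Hspa1b, DESeq2, limma-voom and the stricter filter gave no value because the sum was filtered out. Deviations from the group means correlated at r = 0.05, 0.17 and -0.11 between same-numbered libraries. Between libraries of different number, r ran from -0.20 to 0.11. This cannot settle whether the numbers pair libraries, because each group has only 3. With the replicate block 88 genes and no chaperone were called, and the sum of Hspa1a and Hspa1b had an adjusted p of 0.825. Within 10 kb there were 40 regions near the members, 11 with a peak in all lists. Control-only and 6bKO-only regions numbered 0 and 1 with reciprocal overlap, and 1 to 3 and 0 to 3 with 1 list left out.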
